A study of Homo sapiens with 6 samples.

Results

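Growth factor receptor tyrosine kinases are cell surface proteins that bind a growth factor outside the cell and phosphorylate tyrosines inside it. The 8 receptors described here are INSR, IGF1R, RET, FGFR1, MET, ALK, ERBB2 and ERBB3. They were taken by gene symbol from a table of 14883 named genes, with the brightest probe set kept where a gene had several. In all, 7 of the 8 were measured, each by 1 probe set, and ERBB2 was not analysed here. The receptors were chosen by their shBRG1 minus NSC differences, which were already known when the group was drawn up, so their levels and differences are given as a description and without a test.

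The cells were SK-N-BE(2), an established human neuroblastoma line. In the shBRG1 group (n = 3) they carried the lentiviral vector pLKO-shBRG1, a hairpin against BRG1, the SWI/SNF subunit whose ATPase activity moves nucleosomes. In the NSC group (n = 3) they carried pLKO-NSC, which encodes a non-silencing hairpin. Total RNA was extracted 48 h post-infection, and each sample's 200 ng went to its own single-colour array. Both groups grew in medium with 20% serum and a 1% insulin, transferrin and selenium supplement, so ligand for the insulin receptor was present throughout. The labels name 1 hairpin vector and 1 cell line, and the transcript of the hairpin's target was not analysed here, so the groups rest on their labels. The triplicates are not described as separate cultures, so the spread behind each p-value is that of these samples alone and could be technical.

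Values are log2 expression per probe set, on which a difference of 1 is a doubling. The median over all probe sets was 3.77 to 3.81 in shBRG1 and 3.80 to 3.84 in NSC. Arrays correlated at 0.9907 to 0.9925 within a group and at 0.9860 to 0.9881 between groups (Pearson r across probe sets, which are not independent replicates). Of 10 markers of sympathetic neuroblasts, 9 were measured, at 7.65 to 11.07 in shBRG1 and 7.52 to 11.04 in NSC, and the cells thus carried the transcripts of their labelled type. Of 8 fibroblast and endothelial markers 4 were measured. The fibroblast marker LUM lay at 8.50 to 8.78 in shBRG1 and 8.16 to 8.32 in NSC, within the range of the neuroblast markers, and DCN at 5.37 to 5.45 in shBRG1 and 4.88 to 5.08 in NSC. Both were higher in shBRG1 in the limma fit over all genes (log2 difference 0.39 for LUM, adjusted p = 0.0268, and 0.44 for DCN, adjusted p = 0.00924), and their part in the receptor values was not tested. The endothelial marker PECAM1 lay at 2.08 to 2.46 in shBRG1 and 1.93 to 2.44 in NSC.

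Binding of a ligand brings receptor chains together, and the phosphorylated tail then recruits adaptors such as SHC1 and GRB2, which pass the signal to RAS and the MAP kinase ERK, and to PI3K and AKT. ERK in turn induces early response genes together with its own inhibitors, the Sprouty proteins and the phosphatase DUSP6. In neuroblastoma ALK is the best known of these receptors because it can carry activating mutations, RET marks the sympathetic lineage, and IGF1R is a survival receptor. Measured here were transcripts in bulk RNA, in which fewer cells of a kind and less RNA per cell cannot be told apart.

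The promoters of IGF1R, INSR and the upstream start of RET were rich in G and C. The 250 bases before the start of IGF1R, INSR and RET are shown. The RefSeq table covered 6 of the 8 receptors (GRCh38.p14), RET and ALK with 2 starts each. Among the measured receptors it covered, the ones shown had the largest differences and also the windows richest in G and C. ALK (-0.55) and MET (-0.41) were lower too, and their less GC-rich windows are not printed, so the choice does not describe the lowered receptors as a group. Capitals mark the GC box, GGGCGG or CCGCCC on the other strand, with overlapping matches counted separately. The windows lie at chr15:98648289-98648538 on the plus strand for IGF1R, at chr19:7294415-7294664 on the minus strand for INSR and at chr10:43076819-43077068 on the plus strand for the upstream start of RET, each read along its own gene.
IGF1R: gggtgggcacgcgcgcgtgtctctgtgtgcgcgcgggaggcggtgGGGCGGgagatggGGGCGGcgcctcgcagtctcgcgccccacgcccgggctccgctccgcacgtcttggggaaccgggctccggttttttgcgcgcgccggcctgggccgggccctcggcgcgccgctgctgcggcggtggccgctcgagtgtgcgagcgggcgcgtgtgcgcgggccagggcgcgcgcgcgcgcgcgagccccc
INSR: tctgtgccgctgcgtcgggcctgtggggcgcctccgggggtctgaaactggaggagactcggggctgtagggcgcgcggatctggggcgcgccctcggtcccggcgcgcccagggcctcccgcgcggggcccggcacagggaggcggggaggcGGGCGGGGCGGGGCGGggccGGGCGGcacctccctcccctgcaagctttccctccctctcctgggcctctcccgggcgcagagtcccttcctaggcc
RET: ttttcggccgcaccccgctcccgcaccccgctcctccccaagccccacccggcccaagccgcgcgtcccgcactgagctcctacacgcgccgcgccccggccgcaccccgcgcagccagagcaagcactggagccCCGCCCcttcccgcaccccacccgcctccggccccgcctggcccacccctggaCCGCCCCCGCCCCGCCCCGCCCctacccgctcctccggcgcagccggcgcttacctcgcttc

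The GC content of these windows was 81.2% for IGF1R, 78.4% for INSR and 79.6% for RET, against a median of 58.0% over 35116 promoters. IGF1R had 48 CpG dinucleotides, INSR 28 and RET 33, against a median of 11. The GC box occurred 2 times for IGF1R, 4 times for INSR and 5 times for RET, and at least once in 42.6% of all promoters. The window of MET (68.4% GC) held 2 and that of the upstream start of ALK in its reading direction (71.6% GC) held 4, whereas the window of ERBB2 (65.6% GC) held 0. The downstream start of RET was at the median (58.0% GC, 6 CpG) and held 1 GC box, and that of ALK (53.6% GC, 2 CpG) held 0. The TATA box, TATAAA or TTTATA, was in 0 of these windows and in 10.7% of all promoters. The E-box CACGTG, which reads the same on both strands, occurred once, in the window of the downstream start of ALK, and in 6.34% of all promoters. The core of ETS factor sites, CCGGAA or TTCCGG, occurred 2 times for ERBB2, 0 times in the windows of the other receptors listed, and in 14.5% of all promoters. These are letter matches, with no measurement of binding.

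All 7 measured receptors had a lower mean in shBRG1 than in NSC, and 6 of them had all 3 shBRG1 values below all 3 NSC values, as 15.3% of named genes did. Because the receptors were picked with this difference known, no test of them is given and nothing is read from these counts. The median difference was -0.59 on the log2 scale, beside 0.01 over all named genes.

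INSR, the insulin receptor, had the largest difference of the 7. Its log2 values were 5.36, 5.45 and 5.32 in shBRG1, against 6.32, 6.12 and 6.28 in NSC. The groups did not overlap, and the highest shBRG1 array lay well below the lowest NSC array. The mean was 5.37 ± 0.07 in shBRG1 and 6.24 ± 0.10 in NSC (SD, n = 3 each), a log2 difference of -0.87 (SE 0.08) or 1.82-fold lower.

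IGF1R, the receptor for insulin-like growth factors and a close relative of INSR, differed almost as much. It stood at 7.98, 7.82 and 7.95 in shBRG1, against 8.63, 8.72 and 8.76 in NSC. Every shBRG1 array was below every NSC array. Its log2 difference was -0.79 (SE 0.08), and that of INSR lay within the sum of their standard errors.

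FGFR1, a receptor for fibroblast growth factors, had log2 values of 4.98, 4.89 and 4.87 in shBRG1, against 5.56, 5.50 and 5.60 in NSC. The arrays of each group lay close together and the groups were apart. The log2 difference was -0.64 (SE 0.07), or 1.56-fold lower.

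RET, which responds to the GDNF family of neurotrophic factors, had 9.92, 9.94 and 9.81 in shBRG1, against 10.48, 10.49 and 10.47 in NSC. The NSC arrays were almost equal, and the lowest of the 6 values was that of shBRG1 replicate 3. The log2 difference was -0.59 (SE 0.07), or 1.51-fold lower.

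ALK, the receptor for the ALKAL ligands, was measured at 4.08, 4.36 and 4.16 in shBRG1, against 4.70, 4.79 and 4.76 in NSC. The shBRG1 arrays were more spread than the NSC arrays (SD 0.14 in shBRG1 and 0.05 in NSC), with replicate 2 the highest, and the groups did not overlap. The log2 difference was -0.55 (SE 0.09), or 1.47-fold lower. Its values lay less than 1 log2 unit above the array medians, where background can compress a difference.

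MET, the receptor for hepatocyte growth factor, was dim. Its log2 values were 2.96, 2.91 and 2.98 in shBRG1, against 3.29, 3.57 and 3.22 in NSC, and all 6 were below the median of all probe sets on their array. The groups did not overlap, and NSC replicate 2 stood above the other NSC arrays. The log2 difference was -0.41 (SE 0.10), and it was -0.30 without NSC replicate 2. No detection calls were used, so whether MET was above background is not known here.

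ERBB3, a neuregulin receptor with a weakly active kinase that signals with ERBB2 and is known from Schwann cells, was the receptor with overlapping groups. It had 3.89, 3.89 and 3.83 in shBRG1, against 4.25, 3.89 and 3.92 in NSC. NSC replicate 1 alone stood high, and the other NSC arrays lay beside the shBRG1 arrays. All ERBB3 values lay less than 1 log2 unit above the array medians. The log2 difference was -0.15 (SE 0.10), and it was -0.04 without NSC replicate 1. Of 10 Schwann and glial markers, 6 were measured, at 2.65 to 8.80 in shBRG1 and 2.86 to 8.82 in NSC, with a median difference of -0.21. The top of both ranges was GAP43 alone, at 8.60 to 8.80 in shBRG1 and 8.70 to 8.82 in NSC. All other measured markers of this list lay at or below 5.35 on every array. The glial master regulator SOX10 had 4.92, 4.87 and 5.06 in shBRG1, against 5.21, 5.35 and 5.16 in NSC (adjusted p = 0.0532 from the fit over all genes described below). Of the 6 markers, 1 fell, the dim transcript FOXD3 (-0.24, adjusted p = 0.0415), and its call was lost without any 1 of the 6 arrays (0.0608 to 0.114). Of all named genes 7.19% were lower. The part of these markers in the ERBB3 values was not tested.

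**Figure D1:**
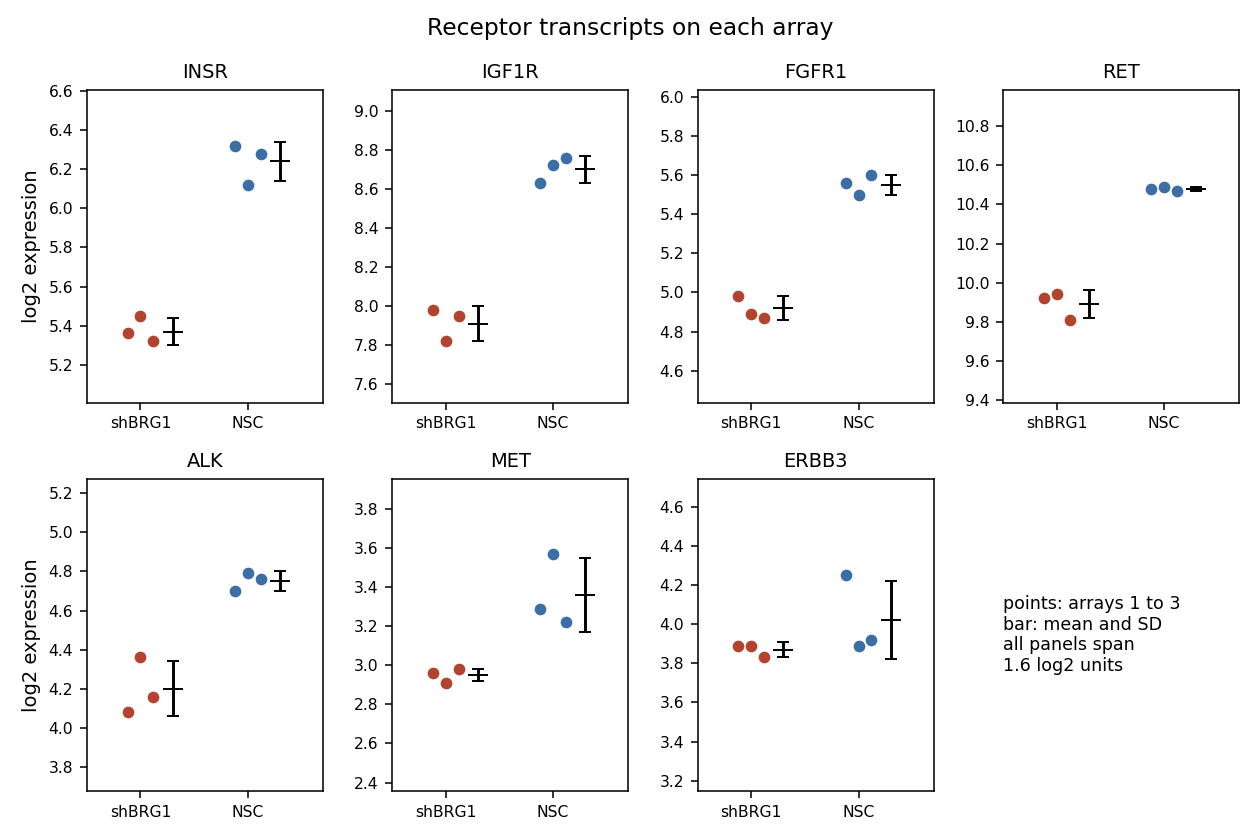
Log2 expression of the 7 measured receptors on each array, shBRG1 to the left of NSC, with points for replicates 1 to 3 and a bar for the mean and SD (n = 3 each); all panels span the same number of log2 units. The groups are apart for INSR, IGF1R, FGFR1, RET, ALK and MET, and overlap for ERBB3, where NSC replicate 1 stands alone at 4.25.

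In order of size, the differences ran from INSR (-0.87) and IGF1R (-0.79) through FGFR1 (-0.64), RET (-0.59) and ALK (-0.55) to MET (-0.41) and ERBB3 (-0.15). Each neighbouring pair from INSR to MET was apart by 0.04 to 0.15 log2 units, with standard errors of 0.07 to 0.10 for each receptor, so the order among neighbours is not settled. With each of the 6 arrays left out in turn, the difference stayed between -0.93 and -0.83 for INSR, between -0.82 and -0.74 for IGF1R and between -0.62 and -0.55 for RET.

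**Figure D2:**
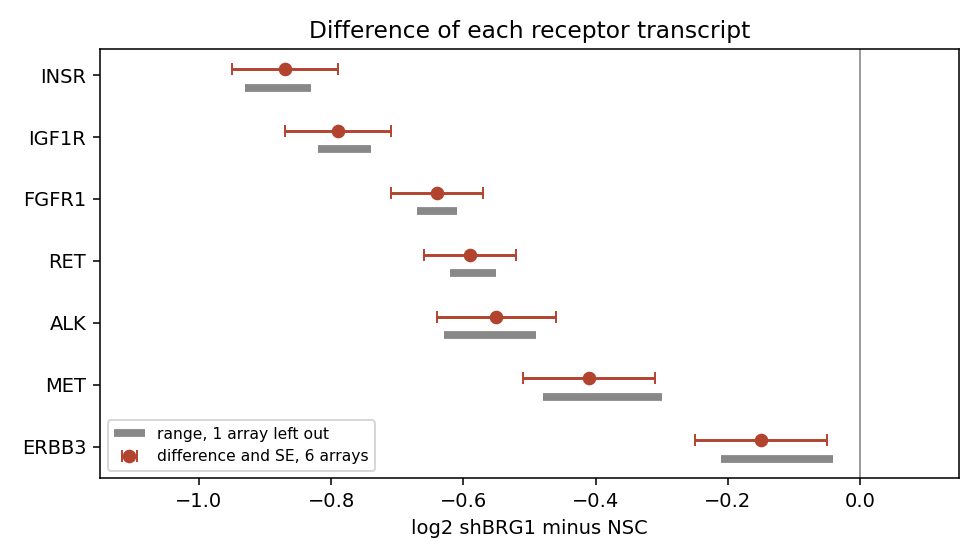
Difference of each receptor (log2 shBRG1 minus NSC) with its moderated standard error, and under it in grey the range of the difference when each of the 6 arrays was left out in turn. All ranges lie below 0, as they must for receptors whose groups did not overlap. That of ERBB3, which ends at -0.04, comes nearest to 0.

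The genes whose 6 values most resembled those of a receptor, each taken as its distance from the gene's NSC mean, were found for the 4 receptors with the largest differences. For RET the nearest of all named genes, nearly tied, were SPRY4, DONSON and STARD4. Their root mean square distances over the 6 arrays were 0.036 log2 units for SPRY4 and 0.037 for both others. FGFR1 was nearest to SMIM18 (0.015), TMX1 (0.022) and SCD (0.031). IGF1R was nearest to ENC1 (0.044), TOP1 (0.046) and MEG3 (0.052), and INSR to HEG1 (0.046), PLK4 (0.053) and SYN2 (0.056). With 2 groups of 3 arrays this distance mostly compares the size of the group difference, by which the receptors were chosen.

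The other genes of the pathway were tested with limma across all named genes, with p-values adjusted by Benjamini and Hochberg over all of them. At an adjusted p of 0.05, 17.0% of the 14883 genes were called in shBRG1 against NSC, 9.78% higher and 7.19% lower. After cyclic loess between arrays the balance turned, with 1212 genes higher and 1329 lower. With genes dimmer than the median gene left out and the rest fitted anew, 3201 of 7442 were called, 1977 higher and 1224 lower. This setting changes the shared variance estimate and the adjustment as well as the genes. It therefore does not isolate the share among brighter genes. Each list is read beside the shares over all named genes, and all adjusted p-values below are from this fit. The lists were drawn up with earlier results of these data known. An excess of calls in a list is therefore not independent evidence.

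Among ligands, the transcripts of hepatocyte growth factor and neuregulin fell. HGF, the ligand of MET, had log2 values of 5.46, 5.42 and 4.83 in shBRG1, against 6.19, 6.15 and 6.22 in NSC. It was 1.93-fold lower (log2 difference -0.95, SE 0.16, adjusted p = 0.00758), and shBRG1 replicate 3 was the lowest array. NRG1, the neuregulin that binds ERBB3 and ERBB4, had 7.53, 7.61 and 7.44 in shBRG1, against 8.02, 7.86 and 7.94 in NSC, a log2 difference of -0.41 (SE 0.08, adjusted p = 0.0114).

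Of 41 listed ligands 34 were measured, and 5 fell, 1 rose and 28 did not pass, with a median difference of -0.09 beside 0.01 over all genes. The share called was close to the 17.0% over all named genes. Of the remaining calls, BTC (-0.28), FGF3 (-0.26) and FGF2 (-0.55) were lower and FGF22 (0.46) higher, with adjusted p-values of 0.0306, 0.0459, 0.0498 and 0.0344. On every array BTC and FGF22 lay below the median of all probe sets, so whether they were above background is not known here. FGF2 was named after its value was seen. BTC and FGF3 were no longer called with any 1 of the 6 arrays left out (adjusted p 0.0570 to 0.136), FGF22 without any but shBRG1 replicate 2 (0.0608 to 0.0961), and FGF2 without replicate 1 or 2 of either group (0.135 to 0.144). The list therefore had 2 or 3 calls without any 1 of the 6 arrays. The growth factor PTN (-0.09, adjusted p = 0.454), its relative MDK (0.21, adjusted p = 0.106) and IGF1 (0.13, adjusted p = 0.302) were not past the threshold. IGF1 too lay below the median of all probe sets on every array. INS, IGF2, GDNF, ALKAL1 and ALKAL2 were not analysed here.

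Co-receptors and binding proteins went both ways. IGFBP3 and IGFBP5, secreted proteins that bind insulin-like growth factors, rose, and SDC4, a heparan sulphate proteoglycan that serves fibroblast growth factor receptors as a co-receptor, fell. IGFBP3 had 6.15, 6.67 and 6.40 in shBRG1, against 5.66, 5.21 and 5.53 in NSC (log2 difference 0.94, SE 0.16, adjusted p = 0.00748). IGFBP5 had 8.29, 8.37 and 8.29 in shBRG1, against 7.78, 7.64 and 7.76 in NSC (log2 difference 0.59, SE 0.07, adjusted p = 0.00217). SDC4 had 6.12, 6.44 and 6.30 in shBRG1, against 7.11, 7.12 and 7.21 in NSC (log2 difference -0.86, SE 0.09, adjusted p = 0.00156). In each of these the groups did not overlap.

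Of 33 such genes 30 were measured, and 4 rose, 4 fell and 22 did not pass, beside 17.0% of all named genes called. Their median difference was -0.02. IGFBP7 (-0.41, adjusted p = 0.0128), the glypican GPC1 (-0.42, adjusted p = 0.0183) and CD44, a hyaluronan receptor and partner of MET (-0.28, adjusted p = 0.0332), were the other lower genes. The syndecans SDC2 (0.26, adjusted p = 0.0337) and SDC1 (0.30, adjusted p = 0.0482) were the other higher ones. IGFBP7 lost its call without shBRG1 replicate 3 (0.0504), GPC1 without shBRG1 replicate 3 or NSC replicate 1 or 2 (0.0553 to 0.0606) or when its probe sets were averaged (0.369). CD44 lost its call without any 1 array but shBRG1 replicate 2 (0.0772 to 0.106), and SDC1 and SDC2 without any 1 of the 6 (0.0518 to 0.140). The list had 3 to 5 calls without any 1 array but shBRG1 replicate 2. The co-receptors that present GDNF family ligands to RET were not past the threshold, with differences of 0.32 for GFRA1 (adjusted p = 0.128), 0.12 for GFRA2 (adjusted p = 0.319) and -0.12 for GFRA3 (adjusted p = 0.610). GFRA1 lay at 3.73 to 3.89 in shBRG1 and 3.20 to 3.65 in NSC, and GFRA3 at 3.68 to 4.01 and 3.71 to 4.13. Both were near or below the array medians, so whether they were above background is not known here. GFRA2 was brighter, at 7.75 to 7.83 in shBRG1 and 7.63 to 7.76 in NSC.

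The remaining receptor tyrosine kinases, taken as a list of 50 of which 41 were measured, had a median difference of -0.03, and 3 rose, 4 fell and 34 did not pass. Their share called was also close to the 17.0% over all named genes. FLT1, a receptor for vascular endothelial growth factor, had 6.01, 6.01 and 5.92 in shBRG1, against 6.67, 6.41 and 6.78 in NSC (log2 difference -0.64, SE 0.10, adjusted p = 0.00640). The kinase LMTK2 fell as well (-0.42, adjusted p = 0.00937). ERBB4, which like ERBB3 binds neuregulins, went the other way, with 4.76, 5.22 and 4.76 in shBRG1, against 4.14, 4.21 and 4.48 in NSC. Its log2 difference was 0.63 (SE 0.15, adjusted p = 0.0252), and the call was lost without NSC replicate 1 (0.0775) or NSC replicate 2 (0.0784). All ERBB4 values in NSC lay less than 1 log2 unit above the array medians.

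The ephrin receptor EPHA5 rose (0.49, adjusted p = 0.0152, and 0.0549 without shBRG1 replicate 1), as did LTK, the closest relative of ALK (0.24, adjusted p = 0.0472). EPHB3 (-0.34, adjusted p = 0.0320) and EPHA7 (-0.29, adjusted p = 0.0359) fell. EPHA5 and EPHB3 lay less than 1 log2 unit above the array medians on every array. EPHA7 was below the median of all probe sets on every shBRG1 array. LTK and EPHA7 were no longer called with any 1 of the 6 arrays left out (0.0582 to 0.124), and EPHB3 without any but shBRG1 replicate 2 (0.0624 to 0.104). The list had 3 or 4 calls without any 1 array but shBRG1 replicate 2. EGFR, the founding member of the ERBB family, had 8.61, 8.77 and 8.63 in shBRG1, against 8.72, 8.68 and 8.75 in NSC (log2 difference -0.05, SE 0.07, adjusted p = 0.720), and its groups overlapped.

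Adaptors and the RAS-MAPK relay had 0 higher and 5 lower calls among 23 measured of 39 listed genes. Over all named genes 9.78% were higher and 7.19% lower. The list's median difference was -0.03. At an unadjusted p under 0.05 the higher genes numbered 2. SHC1, the adaptor that links phosphorylated receptors to GRB2, had 8.62, 8.87 and 8.68 in shBRG1, against 9.37, 9.37 and 9.33 in NSC. It was 1.55-fold lower (log2 difference -0.63, SE 0.08, adjusted p = 0.00282). GAB2, a docking protein that recruits PI3K, had 3.81, 4.01 and 4.11 in shBRG1, against 4.76, 4.69 and 4.81 in NSC (log2 difference -0.78, SE 0.09, adjusted p = 0.00203). For both, every shBRG1 array was below every NSC array. The shBRG1 values of GAB2 lay at or less than 1 log2 unit above the array medians, where background can compress a difference.

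MAP2K1, the kinase MEK1 upstream of ERK (-0.43, adjusted p = 0.0139), the MAP kinase scaffold KSR1 (-0.39, adjusted p = 0.0282) and the small GTPase RRAS (-0.57, adjusted p = 0.0300, named after its value was seen) fell too. MAP2K1 lost its call without shBRG1 replicate 1 (0.0508) or 3 (0.0521). KSR1 lost it without replicate 1 or 3 of either group (0.0839 to 0.0917), and RRAS without shBRG1 replicate 1 or 3 or NSC replicate 1 or 2 (0.0511 to 0.0813). The list had 2 calls without shBRG1 replicate 1 or 3 and 3 without NSC replicate 1. The insulin receptor substrates were not past the threshold, with differences of 0.22 for IRS1 (adjusted p = 0.0549), -0.18 for IRS2 (adjusted p = 0.237) and -0.22 for IRS4 (adjusted p = 0.111). IRS4 was dim, below the median of all probe sets on every array. IRS1 had 4.26, 4.32 and 4.32 in shBRG1, against 4.07, 4.08 and 4.10 in NSC, and passed after cyclic loess (0.0455). GRB2 had a difference of -0.24 (adjusted p = 0.0904, with 0.0258 to 0.226 over the alternatives).

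In the PI3K-AKT relay 16 of 29 genes were measured, and 1 fell, 1 rose and 14 did not pass, with a median difference of 0.08. The share called was below the 17.0% over all named genes. The transcription factor FOXO1, which AKT keeps out of the nucleus, was lower (-0.29, adjusted p = 0.0258) and TSC1, an inhibitor of mTOR complex 1, higher (0.33, adjusted p = 0.0399). FOXO1 lost its call without any 1 array but NSC replicate 1 (0.0569 to 0.0805), and TSC1 without any 1 of the 6 (0.0506 to 0.109), which left 0 or 1 calls in the list. AKT1 had a difference of -0.05 (adjusted p = 0.722).

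**Figure D3:**
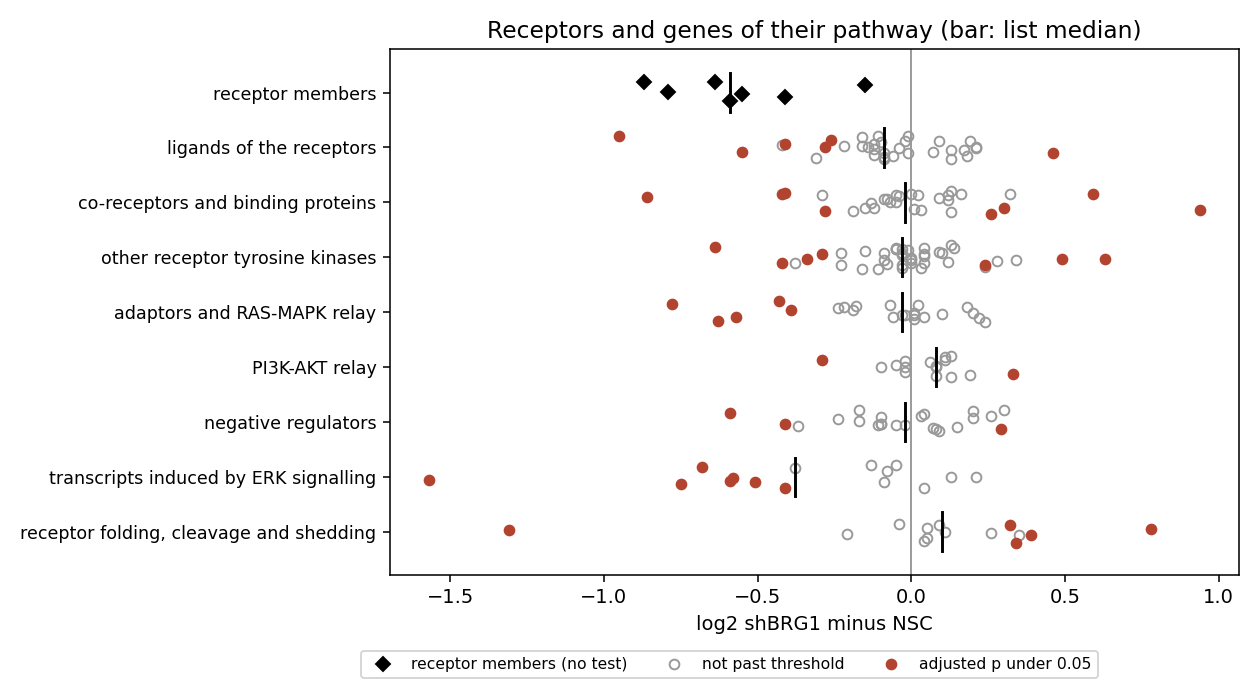
Difference of each measured gene (log2 shBRG1 minus NSC) by list, with receptor members as diamonds and without a test, other genes filled where the adjusted p was under 0.05 and open otherwise, and a bar at each list's median. The medians of most lists lie near 0, and that of the transcripts induced by ERK signalling (-0.38) lies below it. The receptor members were chosen by this difference, so the place of their median (-0.59) is not a result.

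Of the transcripts that ERK signalling is known to induce, EGR1, DUSP6, IER3, SPRY4, DUSP5, ETV5 and SPRY2 fell in shBRG1. Of 16 listed genes 15 were measured, and 7 fell, 0 rose and 8 did not pass, beside 7.19% of all named genes lower. The median difference was -0.38 beside 0.01 over all genes. This list came from textbook knowledge but was drawn up with earlier results of these data known, so its counts are a description. The number of called genes was 6 or 7 without any 1 of the 6 arrays. At an unadjusted p under 0.05 the higher genes numbered 0.

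EGR1, an immediate early transcription factor, fell most, with 6.78, 7.05 and 7.04 in shBRG1, against 8.61, 8.65 and 8.33 in NSC. It was 2.98-fold lower (log2 difference -1.57, SE 0.11, adjusted p = 0.000345). DUSP6, the phosphatase that inactivates ERK, had 6.07, 6.04 and 5.94 in shBRG1, against 6.80, 6.88 and 6.63 in NSC (log2 difference -0.75, SE 0.09, adjusted p = 0.00185). Both were lower on every shBRG1 array than on every NSC array.

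The Sprouty genes SPRY4 and SPRY2 encode inhibitors that ERK signalling induces. SPRY4 had 8.91, 9.01 and 8.92 in shBRG1, against 9.55, 9.52 and 9.53 in NSC (log2 difference -0.59, SE 0.07, adjusted p = 0.00168). SPRY2 had a difference of -0.41 (SE 0.07, adjusted p = 0.00630). The ETS factor ETV5 (-0.51, adjusted p = 0.00574) and the early response gene IER3 (-0.68, adjusted p = 0.00553) fell as well. DUSP5, a nuclear ERK phosphatase, fell too (-0.58, adjusted p = 0.0217) and was named after its value was seen. Its call was lost without shBRG1 replicate 1 (0.0513), 2 (0.058) or 3 (0.0747), and when its probe sets were averaged (0.102).

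Other transcripts of this list did not pass. ETV4, a relative of ETV5, had 6.94, 7.08 and 6.95 in shBRG1, against 7.19, 7.09 and 7.07 in NSC (log2 difference -0.13, adjusted p = 0.302). FOS, an immediate early gene like EGR1, had a difference of 0.21 (adjusted p = 0.290), ETV1 one of 0.13, FOSL1 one of 0.04 and the cyclin CCND1 one of -0.05 (adjusted p = 0.680).

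**Figure D4:**
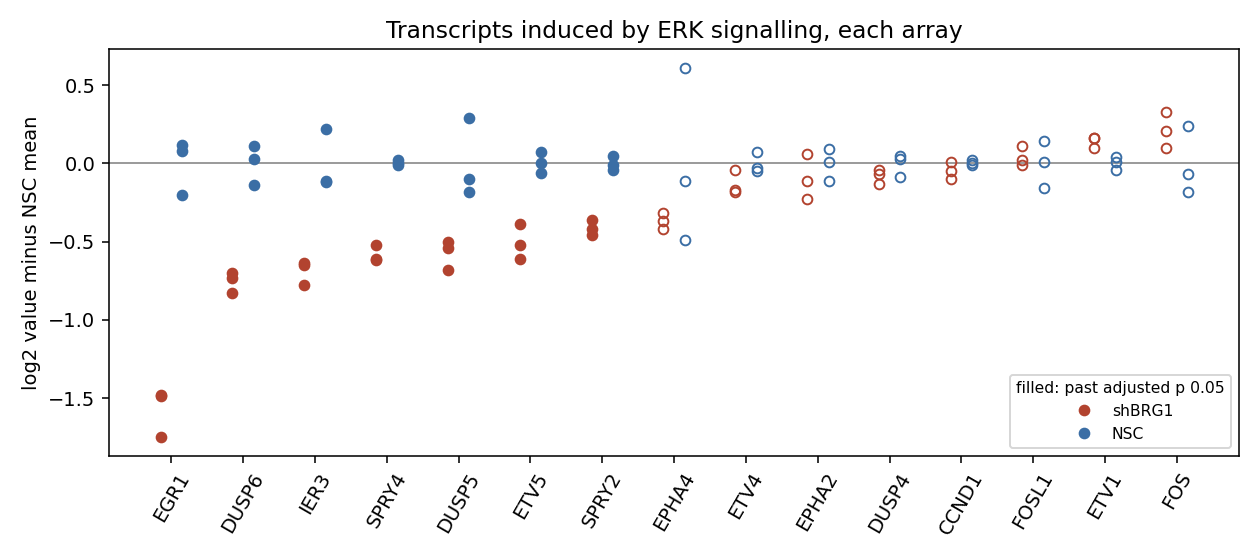
The 15 measured transcripts induced by ERK signalling, each array as its log2 value minus the gene's NSC mean, shBRG1 to the left of NSC, filled where the gene passed an adjusted p of 0.05. The 7 filled genes have all shBRG1 arrays below all NSC arrays, with EGR1 lowest, and the 8 open genes lie around 0 apart from EPHA4, whose NSC arrays are widely spread.

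Of 40 negative regulators of the receptors 23 were measured, and 2 fell, 1 rose and 20 did not pass, with a median difference of -0.02. This share called was below the 17.0% over all named genes. The lower ones were SPRY4 and SPRY2, which stand in both lists. LRIG2, a transmembrane regulator of receptor signalling, was higher (0.29, adjusted p = 0.0250) and lost its call without any 1 array but NSC replicate 1 (0.0564 to 0.0800).

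Genes of receptor folding, cleavage and shedding numbered 14 measured of 18, of which 4 rose, 1 fell and 9 did not pass. Over all named genes 9.78% were higher and 7.19% lower. The median difference of this list was 0.10. FURIN, the protease that cleaves the precursors of INSR, IGF1R and MET, had 6.45, 6.52 and 6.39 in shBRG1, against 5.91, 5.53 and 5.59 in NSC. It was 1.71-fold higher (log2 difference 0.78, SE 0.11, adjusted p = 0.00376), opposite in direction to the receptors. The related protease PCSK7 rose as well (0.39, adjusted p = 0.00652). TIMP3, an inhibitor of the proteases that shed receptors, had 6.02, 6.22 and 6.09 in shBRG1, against 7.45, 7.52 and 7.29 in NSC (log2 difference -1.31, SE 0.09, adjusted p = 0.000287).

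CNPY2 (0.34, adjusted p = 0.0230) and the gamma-secretase subunit NCSTN (0.32, adjusted p = 0.0266) were the other higher genes. CNPY2 lost its call without any 1 array but NSC replicate 1 (0.0506 to 0.0786) and when its probe sets were averaged (0.731). NCSTN lost it without replicate 1 or 2 of either group (0.0748 to 0.0832). The list had 3 calls without shBRG1 replicate 1, shBRG1 replicate 2 or NSC replicate 2.

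Some markers of the sympathetic lineage were lower beside RET and ALK. Of the 9 measured neuroblast markers 6 fell, 0 rose (1 was higher at an unadjusted limma p under 0.05) and 3 did not pass. Of all named genes 7.19% were lower. The median difference of the markers was -0.38. PHOX2A, a transcription factor of noradrenergic neurons, had a difference of -0.51 (adjusted p = 0.00335), the granule protein CHGA one of -0.48 (adjusted p = 0.00271), GATA2 one of -0.50 (adjusted p = 0.00673) and HAND2 one of -0.38 (adjusted p = 0.00859). The 3 that did not pass had positive differences, 0.21 for GATA3 (adjusted p = 0.0677), whose shBRG1 arrays all lay above its NSC arrays, 0.11 for TH (adjusted p = 0.390) and 0.08 for DBH (adjusted p = 0.496). The part of these markers in the RET and ALK values was not tested.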

How the data were processed

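Total RNA from 6 samples of SK-N-BE(2) cells was hybridised to 1 array each. The authors deposited log2 expression values per probe set, from 1.19 to 13.8 (log2 read from the range), and used RMA, oligo 1.27, limma 3.19 and R 3.1.0, per the submitters' processing notes. RMA gives all arrays a common distribution, which hides a shift shared by every gene, and it can understate differences of dim probe sets. The sources used here do not name a genome build. Of 52299 probe sets 15828 had 1 gene symbol, 0 several and 36471 none. Symbols were checked by gene identifier against GRCh38.p14 (15828 matched), and the brightest probe set of a gene by the mean of 6 arrays was kept, which left 14883 genes.

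The test was limma 3.58.1 (R 4.3.3; lmFit and eBayes, two-sided, shBRG1 minus NSC, no covariates), adjusted by Benjamini and Hochberg over all genes at 0.05. The exact permutation test of 3 against 3 arrays cannot go below p = 0.1. The number of arrays limits the precision. The fit was tested on simulated data. Receptors and lists were chosen, the lists from textbook knowledge, with earlier results of these data known. In each list up to 4 higher and 4 lower genes with the smallest p are named, with preset ligands, adaptors and targets, and the 3 genes most like INSR, IGF1R, FGFR1 and RET. FGF2, RRAS, DUSP5, FOS, FOSL1, ETV1, CCND1, EPHA4, SOX10, GAP43, GATA3, TH, DBH, PECAM1 and VWF were named outside this rule. Same-numbered arrays did not deviate together (correlations of -0.144 to -0.033), so replicate numbers were not used as pairs.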

Additional observations from a re-analysis of the deposited data

How the results depend on the processing

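All 7 receptor differences kept their sign under each of the scalings, variance models and left-out arrays run, and their median stayed between -0.65 and -0.55, against -0.59. For receptors whose groups did not overlap, leaving out 1 array cannot reverse the sign. Trend and robust options and the replicate block leave a difference unchanged. The kept signs therefore add little to the differences by which the receptors were chosen. Same-numbered arrays shared only a number, and with the replicate number as a block 1608 genes passed (870 higher, 738 lower), against 2525 (1455 higher, 1070 lower). The block left 4 calls among other receptor tyrosine kinases, 2 among ligands, 5 among co-receptors, 0 in the PI3K-AKT relay and 3 in folding and cleavage. Testing every probe set gave 1259 named genes, with 2 calls among other receptor tyrosine kinases, 2 ligands, 4 co-receptors, 2 adaptors, 0 of the PI3K-AKT relay and 3 of folding and cleavage. An adjusted p of 0.01 gave 1086 genes, and 2, 1, 3, 2, 0 and 3 calls in the same lists. Cyclic loess left 1 call in the PI3K-AKT relay, and trend and robust options gave 6 negative regulators. With 1 array left out the calls ranged from 1604 to 1840 over all genes, 3 to 5 for other receptor tyrosine kinases, 2 to 3 for ligands, 3 to 6 for co-receptors, 2 to 5 for adaptors, 0 to 1 for the PI3K-AKT relay, 2 to 3 for negative regulators, 6 to 7 for transcripts induced by ERK signalling and 3 to 5 for folding and cleavage. The stricter threshold gives fewer calls by definition. A left-out array changes both the number of arrays and which arrays are used, and these cannot be told apart here. For the other settings the cause was not tested. Dim receptors such as MET are limited by signal over background, for which no detection calls were used.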

Other observations

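Among the markers of fibroblasts and endothelium, 2 genes of the small leucine-rich proteoglycans rose, as 9.78% of all named genes did. DCN, which encodes decorin, a matrix proteoglycan known to bind EGFR and MET, had 5.37, 5.45 and 5.37 in shBRG1, against 5.08, 4.91 and 4.88 in NSC (log2 difference 0.44, SE 0.08, limma adjusted p = 0.00924). LUM, which encodes lumican, had 8.61, 8.78 and 8.50 in shBRG1, against 8.32, 8.26 and 8.16 in NSC (log2 difference 0.39, SE 0.09, limma adjusted p = 0.0268). For both, every shBRG1 array lay above every NSC array. The call of LUM was lost without replicate 2 of either group, shBRG1 replicate 1 or NSC replicate 3 (0.0683 to 0.0815). PECAM1 (-0.01) and VWF (0.06), the measured endothelial markers, did not pass.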
